A study of Homo sapiens with 6 samples.

Results

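The aldo-keto reductases are enzymes that use NADPH to turn aldehydes and ketones, among them steroids, sugars and products of lipid oxidation, into alcohols. 10 genes of this superfamily, AKR1A1, AKR1B1, AKR1B10, AKR1C1, AKR1C2, AKR1C3, AKR1C4, AKR1D1, AKR7A2 and AKR7A3, were followed among the 60675 genes counted in RNA-seq of MTR4 knockdown cells. The set was chosen by the rise of AKR1D1 after MTR4 knockdown in these same libraries, so the change of AKR1D1 is described here without a test. The other 9 genes are listed because they belong to the family, and their changes were tested in the same comparison. All 10 genes passed the filter on low counts, as did 18075 genes in all.

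The cells were PLC/PRF/5, a human liver cancer (hepatocellular carcinoma) line grown in DMEM with fetal bovine serum, and the study asked which genes depend on MTR4, an RNA helicase of the nuclear exosome. The groups were 3 libraries labelled control and 3 labelled MTR4 KD, both from the same parental line. According to the text of the study, the RNA was compared before and after an inducible short hairpin RNA against MTR4 was switched on with doxycycline (Doxy). The labels do not say which hairpin, if any, the control libraries carried. By the study's account no Doxy-treated library with a scramble hairpin was analysed here, so the hairpin's effect and that of Doxy cannot be told apart. The paper reports that Doxy left glycolytic genes unchanged in cells with an inducible scramble hairpin. The labels number the libraries of each group and do not say whether they came from separate cultures, so p-values measure the spread between these samples, which may be technical.

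Per library, 60686786 to 72708682 reads were counted on genes. MTR4 itself (gene MTREX) had 72.2, 87.4 and 74.3 CPM (reads scaled to 1000000 per library) in the control libraries, in order of replicate number, against 44.5, 48.8 and 44.1 CPM in the MTR4 KD libraries. It fell by 0.77 on the log2 scale (SE 0.0897, edgeR's quasi-likelihood test, adjusted p = 0.00641). All 13 hepatocyte and hepatoma markers examined were at 1 CPM or more in all 6 libraries and summed to 25936.5 to 27635 CPM in the controls and 25861 to 27667 CPM in MTR4 KD. Of these 13 genes the plasma proteins TTR (log2 fold change 0.88, adjusted p = 0.00693), APOA1 (0.52, adjusted p = 0.00921) and ALB (0.29, adjusted p = 0.0480) rose and the keratin KRT18 fell (-0.26, adjusted p = 0.0435). Of all 18075 tested genes, 1.48% were higher and 2.12% lower at an adjusted p under 0.05 in the same test. The 9 markers of blood, endothelial and stromal cells that could be read, of 10 listed, summed to 7.37 to 12.7 CPM in the controls and 5.93 to 11.7 CPM in MTR4 KD, 2 of them reached 1 CPM in every library, and none was at 0 in all. Reads whose alignment was not unique were over 30% of the entries in control replicates 1 and 3 and MTR4 KD replicate 3 (34.7% to 37.5%), and 14.8% to 18.2% in control replicate 2 and MTR4 KD replicates 1 and 2. Both sets hold both conditions, and each tested member of the family is therefore also given from a fit with the set (the read set) as a second term.

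In the liver the family has several well-known tasks. AKR1D1 reduces the double bond of the steroid A ring, a step both of bile acid synthesis and of the clearance of steroid hormones, and AKR1C4 then reduces the neighbouring ketone. AKR1C1, AKR1C2 and AKR1C3 interconvert active and inactive steroid hormones in many tissues, AKR1B1 makes sorbitol from glucose in the polyol pathway, AKR1B10 reduces retinaldehyde, and AKR1A1 and the AKR7A enzymes reduce short reactive aldehydes. Several of these genes, AKR1C1 and AKR1B10 among them, are known targets of the stress-sensing transcription factor NRF2.

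The 4 AKR1C genes lie in 1 cluster on chromosome 10 and are near copies of each other, which limits how well short reads can be assigned to each. Their first 120 coding bases are shown for this reason, read from GENCODE v44 transcripts. Capitals mark the bases that differ from AKR1C1 in the AKR1C2 line and from AKR1C2 in the others.
AKR1C2: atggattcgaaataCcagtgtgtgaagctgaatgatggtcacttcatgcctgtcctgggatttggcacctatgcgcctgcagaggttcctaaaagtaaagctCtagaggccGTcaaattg
AKR1C1: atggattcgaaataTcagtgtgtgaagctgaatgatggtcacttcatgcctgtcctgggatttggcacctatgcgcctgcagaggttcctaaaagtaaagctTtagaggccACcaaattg
AKR1C3: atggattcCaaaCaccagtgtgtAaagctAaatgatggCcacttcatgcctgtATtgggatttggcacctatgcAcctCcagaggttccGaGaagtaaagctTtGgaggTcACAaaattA
AKR1C4: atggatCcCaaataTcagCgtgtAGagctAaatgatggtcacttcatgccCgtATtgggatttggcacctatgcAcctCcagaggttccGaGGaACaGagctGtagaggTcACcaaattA

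AKR1C1 and AKR1C2 were hard to tell apart by sequence. Over the 969 coding bases they differed at 19 (98.0% identity), and the longest stretch without a difference was 186 bases. AKR1C3 was 91.4% identical to AKR1C1 and 91.0% identical to AKR1C2, and AKR1C4 was 88.5% and 87.8% identical to them. Of all 50-base stretches of the AKR1C2 transcript, 47.3% also occurred in a transcript of another gene, against 22.7% for AKR1C1, 18.6% for AKR1C3 and 14.2% for AKR1C4. The share was 30.7% for AKR7A3, which has a near copy in the pseudogene AKR7L, 17.3% for AKR1B10, 8.01% for AKR7A2 and 4.95% for AKR1B1. For AKR1D1 it was 0.569% and for AKR1A1 it was 0%. With 100-base stretches the share fell to 27.8% for AKR1C2, 12.6% for AKR1C1 and 15.1% for AKR7A3. The read length is not given in the sources used here. Reads that could not be placed at 1 position were not counted on a gene, so the levels of the AKR1C genes, AKR7A3 and AKR1B10 are uncertain.

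**Figure D1:**
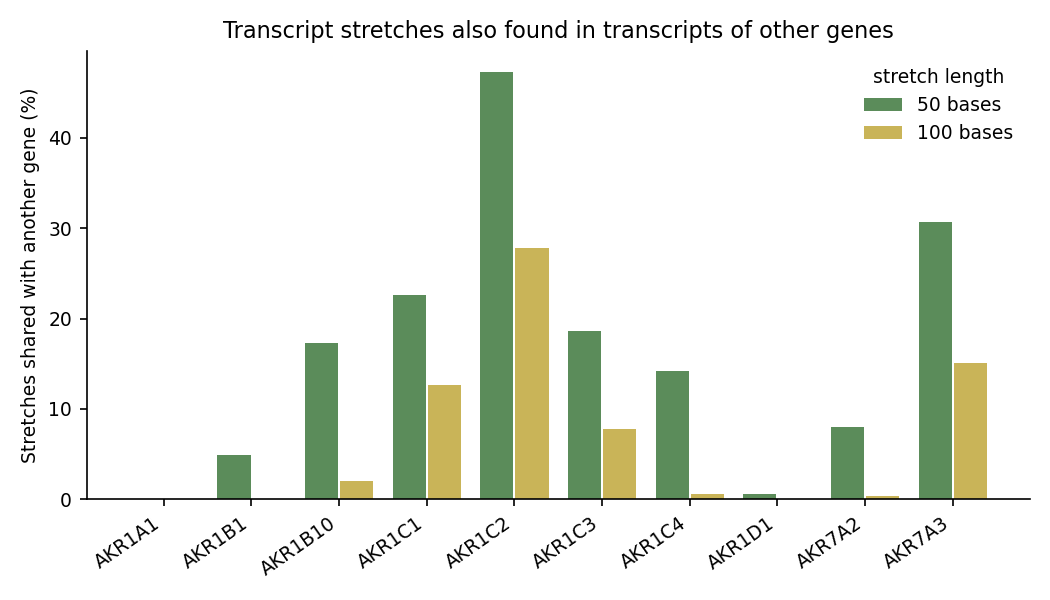
Percent of 50-base (green) and 100-base (yellow) stretches of each gene's canonical transcript that also occur in a transcript of another gene. AKR1C2 had the highest share at 47.3% for 50 bases, and AKR1A1 had 0% and AKR1D1 0.569%.

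The region before the start site was compared as well, in RefSeq promoters on GRCh38.p14. Shown are AKR1D1, the gene that chose the set, and the AKR1C1 and AKR1C2 pair, the most abundant genes. The 250 bases upstream of AKR1D1 (chr7:138076209-138076458, plus strand) hold a single match to the HNF1 half-site GTTAAT, in capitals, at position -66 from the start.
AKR1D1: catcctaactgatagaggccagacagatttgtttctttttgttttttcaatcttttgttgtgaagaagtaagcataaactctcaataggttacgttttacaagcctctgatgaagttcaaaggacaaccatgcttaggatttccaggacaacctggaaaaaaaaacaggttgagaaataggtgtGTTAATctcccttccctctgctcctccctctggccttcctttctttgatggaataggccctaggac
AKR1C1 and AKR1C2 shared an unbroken identical run of 245 bases just before their start sites (AKR1C1 at chr10:4963169-4963413 on the plus strand, AKR1C2 at chr10:5003863-5004107 on the minus strand). Its only match to the letters searched, CCAAT on the opposite strand, is in capitals. The AKR1C2 gene span reaches position 5018000, so the AKR1C2 start site used here lies inside the gene.
AKR1C1 and AKR1C2: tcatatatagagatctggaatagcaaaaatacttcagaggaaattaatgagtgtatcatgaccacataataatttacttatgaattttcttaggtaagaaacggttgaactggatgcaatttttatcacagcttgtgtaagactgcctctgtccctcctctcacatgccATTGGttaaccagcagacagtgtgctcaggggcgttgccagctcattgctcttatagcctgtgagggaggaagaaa

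Letters were searched on both strands of the 300-base promoters (250 bases before to 50 after the start). They were TGACNNNGC for the antioxidant response element, GTTAAT for the HNF1 half-site, CAAAGTCCA for HNF4, TATAAA and CCAAT. Matches to different letters did not overlap in the 9 genes below. In the 35116 promoters of the table, TGACNNNGC occurred in 13.3%, GTTAAT in 6.88%, CAAAGTCCA in 0.384%, TATAAA in 11.5% and CCAAT in 34.6%. Promoters were at hand for 9 of the 10 genes, all but AKR1B10. AKR1D1 was the only one of these 9 with a GTTAAT match, and AKR7A2 the only one with TGACNNNGC, which occurred 3 times. The first AKR1C3 promoter and the AKR1C4 promoter held TATAAA, at positions -26 and -29 from the start. The AKR1D1 promoter held 1 CpG dinucleotide, those of AKR1C1 and AKR1C2 held 3 each, and that of AKR7A3 held 33, beside a median of 14 over all promoters. A match describes letters only and is not evidence of binding.

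Levels were compared between genes as CPM per kilobase of the canonical transcript. In the control cells AKR1C2 had the highest level of the 10 genes, 271 ± 20.0 CPM per kilobase (SD, n = 3). AKR1A1 followed with 62.2 ± 3.55, AKR7A2 with 41.5 ± 5.24, AKR1C1 with 38.2 ± 2.46 and AKR1B1 with 37.2 ± 1.39. A wide gap separated these from AKR1C4 with 2.1 ± 0.474, AKR1B10 with 1.19 ± 0.199, AKR1D1 with 0.487 ± 0.0450, AKR7A3 with 0.327 ± 0.0881 and AKR1C3 with 0.227 ± 0.0636. The libraries of AKR7A2 overlapped those of AKR1C1, those of AKR1C1 overlapped those of AKR1B1, and those of AKR7A3 overlapped those of AKR1C3, so the order within these pairs is not fixed, and all other neighbours were apart in every control library.

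The place of AKR1C1 rests on the length used. Its canonical transcript has 6543 bases and that of AKR1C2 has 3215, while their coding lengths are the same. Per kilobase of coding sequence, a measure added after the data were seen, AKR1C1 was second with 257.7 CPM per kilobase behind AKR1C2 with 899, and ahead of AKR1A1 with 89.8. AKR1B1 (53.4) and AKR7A2 (52.3) also changed places. The 5 low genes kept their order on that scale.

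In the MTR4 KD cells AKR1D1 stood 1 place higher in this order, at 1.36 ± 0.206 CPM per kilobase of transcript. It was then above AKR1B10 (0.776 ± 0.177) in every library and overlapped AKR1C4 (1.52 ± 0.248). AKR1B1, at 29.8 ± 1.1, no longer overlapped AKR1C1 at 36.8 ± 1.67. AKR1C3 (0.425 ± 0.201) and AKR7A3 (0.305 ± 0.238) were at the bottom in the reverse order, with overlapping libraries.

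**Figure D2:**
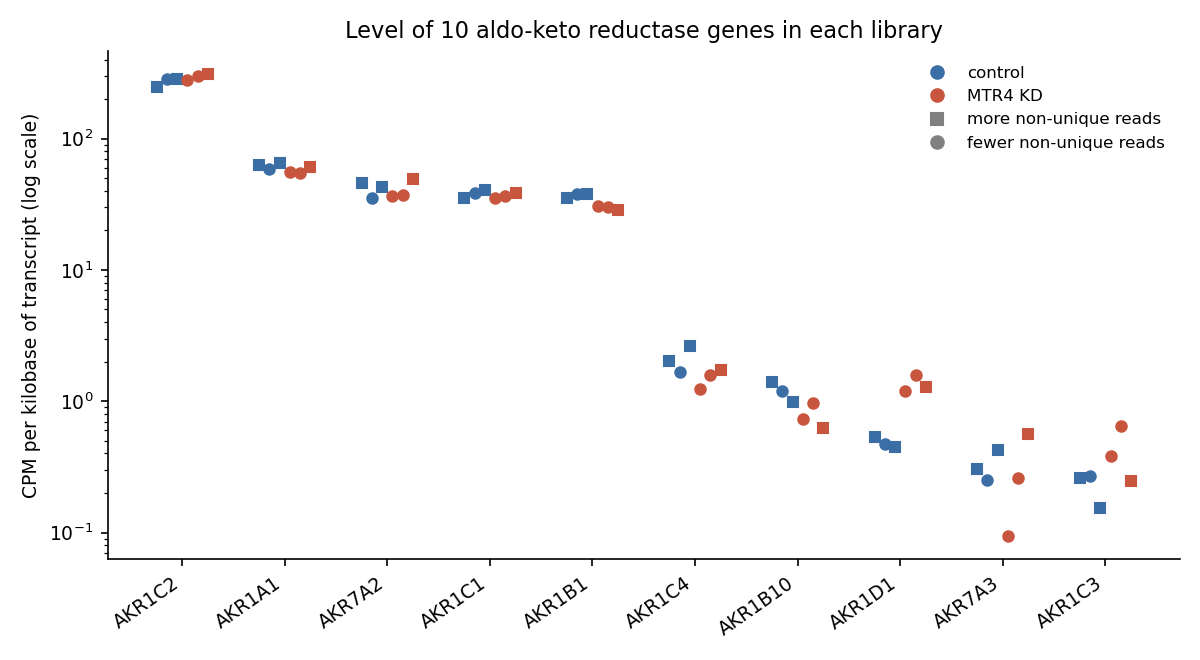
Level of each gene in each library as CPM per kilobase of canonical transcript on a log axis, with control in blue, MTR4 KD in red, squares for the libraries with more non-unique reads and circles for those with fewer. Genes run from the highest control mean, AKR1C2 at 271, to the lowest, AKR1C3 at 0.227, and AKR1D1 is the only gene whose red points all lie above its blue points.

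Summed over the 10 genes, the family took 1235, 1350 and 1381 CPM in the control libraries, in order of replicate number, against 1313, 1383 and 1453 CPM in the MTR4 KD libraries. The 2 groups overlapped. AKR1C1 and AKR1C2 together made up 83.3% to 86.0% of these reads in the controls and 86.3% to 87.2% in MTR4 KD, so the family's total is in effect theirs.

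Among the 18075 tested genes, 650 (3.60%) had an adjusted p under 0.05 in the quasi-likelihood test of edgeR when condition was the only term, 267 (1.48%) of them higher and 383 (2.12%) lower in MTR4 KD. Of the 9 aldo-keto reductases other than AKR1D1, 1 was called (11.1%), AKR1B1, which was lower. With the read set as a second term 3649 of the tested genes (20.2%) were called, 1705 (9.43%) higher and 1944 (10.8%) lower, and 2 of the 9 (22.2%), AKR1B1 and AKR1B10, both lower. The groups did not overlap for the same 2 of 9 genes (22.2%), beside 24.7% of all tested genes. The shares with the read set and without overlap were thus near those of all genes. Without regard to the test, 2 of the 9 had a log2 fold change above 0 and 7 below, beside 9234 above and 8841 below among all tested genes. Of those 7, AKR7A2 and AKR7A3 were above 0 with the read set as a term.

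The gene whose change brought the family to notice acts in bile acid and steroid A-ring reduction. AKR1D1 (ENSG00000122787, chr7:138076459-138118305) had 1.44, 1.27 and 1.21 CPM in the control libraries, in order of replicate number, against 3.23, 4.28 and 3.46 CPM in the MTR4 KD libraries. Every MTR4 KD library was above every control library. The raw counts behind these values were 89, 92 and 73 in the controls and 198, 286 and 212 in MTR4 KD. The mean was 1.31 ± 0.121 CPM in the controls and 3.65 ± 0.554 CPM in MTR4 KD (SD, n = 3 each), a ratio of 2.79 and a log2 fold change of 1.48. These are the values by which the family was chosen. The log2 difference was 1.38 among the libraries with more non-unique reads and 1.56 among those with fewer. In bulk RNA, more cells of a kind and more RNA per cell cannot be told apart.

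AKR1C4 (ENSG00000198610, chr10:5196837-5218949), the liver enzyme that acts after AKR1D1, had 2.40, 2.00 and 3.12 CPM in the control libraries against 1.48, 1.90 and 2.05 CPM in the MTR4 KD libraries. The groups overlapped, with MTR4 KD replicate 3 above control replicate 2. Its log2 fold change was -0.46 with a 95% interval of -0.97 to 0.04 (edgeR, adjusted p = 0.306), and -0.33 with the read set as a term (adjusted p = 0.229). Of the other 15 listed genes of bile acid synthesis, 13 were tested and none passed edgeR's test after adjustment, while 7 had an unadjusted p under 0.05, as did 3392 of all 18075 tested genes. Their median log2 fold change was 0.20, beside 0.01 over all tested genes. By DESeq2's Wald test 1 of them was called higher and 1 lower, beside 1363 of all 18075 tested genes in either direction. By limma-voom none passed, beside 611 of all tested genes. With the read set as a term 3 of the 13 were called higher and 1 lower, beside 9.43% and 10.8% of all tested genes.

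**Figure D3:**
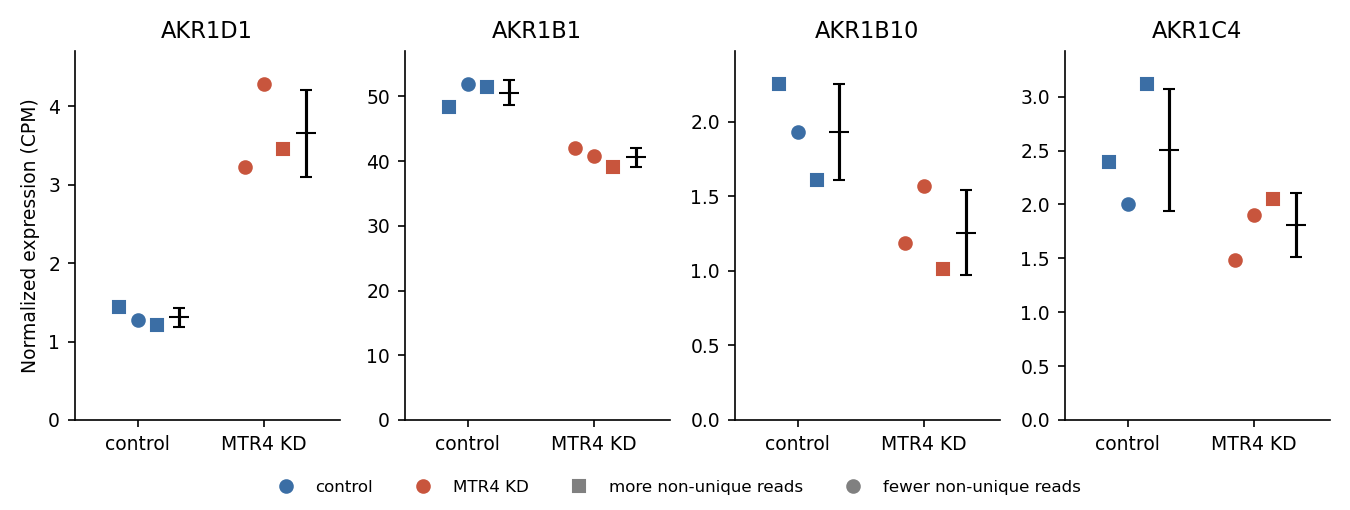
CPM of AKR1D1, AKR1B1, AKR1B10 and AKR1C4 in each control (blue) and MTR4 KD (red) library, with squares for libraries with more and circles for those with fewer non-unique reads, and with the group mean and SD in black. Each axis starts at 0, and the groups do not overlap for AKR1D1, AKR1B1 and AKR1B10 but do for AKR1C4.

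The polyol pathway enzyme was the member that passed the test. AKR1B1, aldose reductase (ENSG00000085662, chr7:134442350-134459239), had 48.4, 51.9 and 51.5 CPM in the control libraries against 42.0, 40.8 and 39.1 CPM in the MTR4 KD libraries. All 3 MTR4 KD libraries were below all 3 controls. The mean was 50.6 ± 1.89 CPM in the controls and 40.6 ± 1.47 CPM in MTR4 KD, a fall of 0.32 on the log2 scale (SE 0.0614, 95% interval -0.46 to -0.17, edgeR, adjusted p = 0.0396). The fold change was -0.34 with the read set as a term (adjusted p = 0.000383), and -0.35 within the set with more non-unique reads and -0.33 within the other. Its call was lost when any 1 of the 6 libraries was left out (adjusted p = 0.0581 to 0.172) and when libraries were scaled by total counts (adjusted p = 0.0502), while the fold change stayed between -0.35 and -0.29. A row summing AKR1B1, AKR1B10 and AKR1B15, in which AKR1B1 made up 2987 of 3127 reads in control replicate 1, gave -0.33 (adjusted p = 0.0336).

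A list of 9 other genes covered the polyol pathway and fructose metabolism and also held SLC6A12 and SLC6A6, which transport betaine and taurine. Of these 9 genes, 8 were tested, 3 were called higher and 1 lower, and the median log2 fold change was 0.19. SLC6A12, a betaine transporter, rose by 0.69 on the log2 scale (edgeR, adjusted p = 0.0169), and GLYCTK, which phosphorylates glycerate, by 0.43 (adjusted p = 0.0260). SLC6A6, a taurine transporter, fell by 0.39 (adjusted p = 0.0186). With the read set as a term 4 of the 8 were called higher and 2 lower. Of all tested genes, 1.48% were called higher and 2.12% lower by condition only, and 9.43% and 10.8% with the read set.

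AKR1B10 (ENSG00000198074, chr7:134527567-134541412), a retinaldehyde reductase that is often raised in liver tumors, lies beside AKR1B1 on chromosome 7. It had 2.25, 1.93 and 1.61 CPM in the control libraries against 1.19, 1.57 and 1.01 CPM in the MTR4 KD libraries. The groups did not overlap, although control replicate 3, with 97 raw counts, and MTR4 KD replicate 2, with 105, lay close together. The mean was 1.93 ± 0.323 CPM in the controls and 1.26 ± 0.286 CPM in MTR4 KD, and the log2 fold change was -0.62 (SE 0.227, 95% interval -1.15 to -0.08, edgeR, adjusted p = 0.206). With the read set as a term it was -0.69 and passed (adjusted p = 0.0454). It was -0.93 within the set with more non-unique reads and -0.49 within the other.

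The AKR1C genes carry most of the family's reads, and none of the 4 passed the test. AKR1C2 (ENSG00000151632, chr10:4987775-5018000), which inactivates dihydrotestosterone, had 797, 908 and 909 CPM in the control libraries against 904, 968 and 1001 CPM in the MTR4 KD libraries. Control replicates 2 and 3 lay above MTR4 KD replicate 1, so the groups overlapped. By CPM it ranked between 101 and 116 among all genes in the controls and between 74 and 87 in MTR4 KD. The log2 fold change was 0.14 with a 95% interval of -0.04 to 0.31 (edgeR, adjusted p = 0.391), and 0.14 with an interval of 0.0080 to 0.27 with the read set as a term (adjusted p = 0.129). It was 0.23 within the set with more non-unique reads and 0.04 within the other.

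AKR1C1 (ENSG00000187134, chr10:4963415-4983283), which inactivates progesterone, had 232, 253 and 264 CPM in the control libraries against 232, 238 and 253 CPM in the MTR4 KD libraries. The groups overlapped, with control replicates 2 and 3 above every MTR4 KD library and control replicate 1 below 2 of them. The log2 fold change was -0.05 with a 95% interval of -0.22 to 0.11 (edgeR, adjusted p = 0.742), and -0.04 with the read set as a term (adjusted p = 0.652). It was 0.03 within the libraries with more non-unique reads and -0.11 within those with fewer.

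The balance between AKR1C2 and AKR1C1 was examined after their values were seen. Of the reads counted on either gene, AKR1C2 took 77.4%, 78.2% and 77.5% in the control libraries against 79.6%, 80.3% and 79.8% in the MTR4 KD libraries. Each MTR4 KD library was above each control library. The difference was 2.19 percentage points, from 77.7% ± 0.425 to 79.9% ± 0.337 (SD, n = 3 each). An exact permutation test over the 6 libraries gave p = 0.1, the smallest value it could give, so it cannot decide. The difference was 2.36 percentage points within the libraries with more non-unique reads and 1.73 within those with fewer. The share does not depend on how libraries are scaled, but it rests on reads that could be told apart between 2 near copies.

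**Figure D4:**
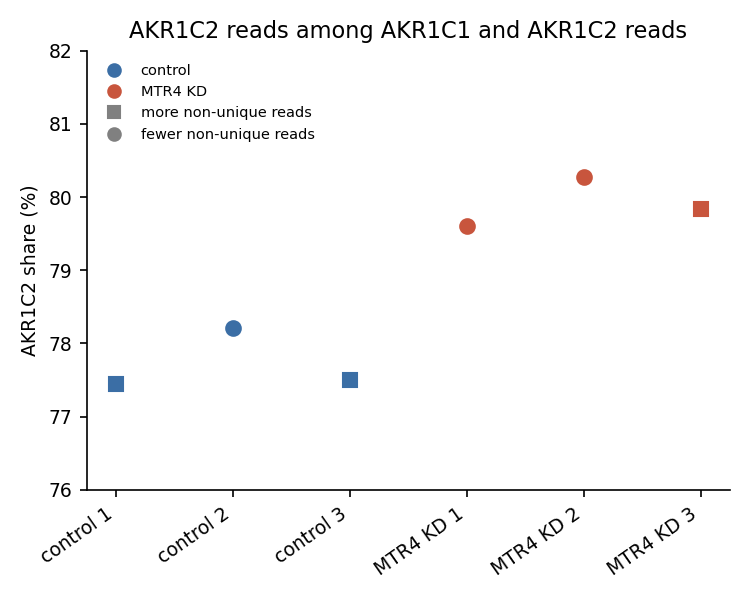
Percent of the reads on AKR1C1 and AKR1C2 that were counted on AKR1C2, in each library, on an axis from 76% to 82%, with squares for libraries with more and circles for those with fewer non-unique reads. The 3 control libraries sit between 77.4% and 78.2% and the 3 MTR4 KD libraries between 79.6% and 80.3%.

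AKR1C3 (ENSG00000196139, chr10:5048781-5107686), which makes active androgens and prostaglandin F, was barely read, with 19, 23 and 11 raw counts in the control libraries against 28, 51 and 18 in the MTR4 KD libraries. MTR4 KD replicate 3 was below 2 of the 3 controls. The log2 fold change was 0.90 with a 95% interval of -0.13 to 1.92 (edgeR, adjusted p = 0.325), and 0.63 with the read set as a term (adjusted p = 0.349). Its levels in the set with more non-unique reads were 0.72 lower on the log2 scale than in the other set. Summing the 4 AKR1C genes into 1 row gave 0.10 (SE 0.0746, adjusted p = 0.552).

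Of 29 other listed genes that reduce or inactivate steroids, 22 were tested. By edgeR 2 were called higher and none lower, with a median log2 fold change of 0.16. In that test 6 had an unadjusted p under 0.05, as did 3392 of all 18075 tested genes. DESeq2's Wald test called 4 higher and 1 lower, beside 1363 of all tested genes in either direction. The limma-voom fit called 2 higher and none lower, beside 611 of all tested genes. SULT2A1, which adds sulfate to steroids and bile acids, went from 1.52, 1.27 and 1.61 CPM to 5.70, 6.33 and 5.43 CPM, a rise of 1.99 on the log2 scale (adjusted p = 0.000849). HSD17B6, an oxidoreductase of androgens, rose by 0.94 (adjusted p = 0.0189). With the read set as a term 8 of the 22 were called higher and 1 lower. Over all tested genes the shares called higher and lower were 1.48% and 2.12% by condition only, and 9.43% and 10.8% with the read set.

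The enzymes for short reactive aldehydes showed no change past the test. AKR1A1, aldehyde reductase (ENSG00000117448, chr1:45550826-45570049), had 88.4, 82.2 and 92.0 CPM in the control libraries against 78.9, 76.7 and 85.7 CPM in the MTR4 KD libraries. Only MTR4 KD replicate 3 reached into the range of the controls. AKR1A1 had a log2 fold change of -0.12 with a 95% interval of -0.29 to 0.05 (edgeR, adjusted p = 0.418), and -0.08 with the read set as a term (adjusted p = 0.228).

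AKR7A2 (ENSG00000053371, chr1:19302708-19312146), which reduces succinic semialdehyde, had 62.2, 48.4 and 58.5 CPM in the control libraries against 49.9, 51.0 and 66.7 CPM in the MTR4 KD libraries. The 3 high values, control replicates 1 and 3 and MTR4 KD replicate 3, were those with more non-unique reads, whose level was 0.36 higher on the log2 scale. The log2 fold change was -0.01 with a 95% interval of -0.34 to 0.31 (edgeR, adjusted p = 0.970) and had the opposite sign, 0.10, with the read set as a term (adjusted p = 0.161). The part of read placement in this pattern was not tested.

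AKR7A3 (ENSG00000162482, chr1:19274229-19288770), known for reducing an aflatoxin metabolite, had 23, 22 and 31 raw counts in the control libraries against 7, 21 and 42 in the MTR4 KD libraries. The MTR4 KD libraries held both the lowest and the highest value. AKR7A3 had a log2 fold change of -0.09 with a 95% interval of -1.48 to 1.29 (edgeR, adjusted p = 0.949). It was 0.13 with an interval of -0.83 to 1.1 once the read set was a term (adjusted p = 0.876), and the level was 1.11 higher on the log2 scale in the set with more non-unique reads.

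**Figure D5:**
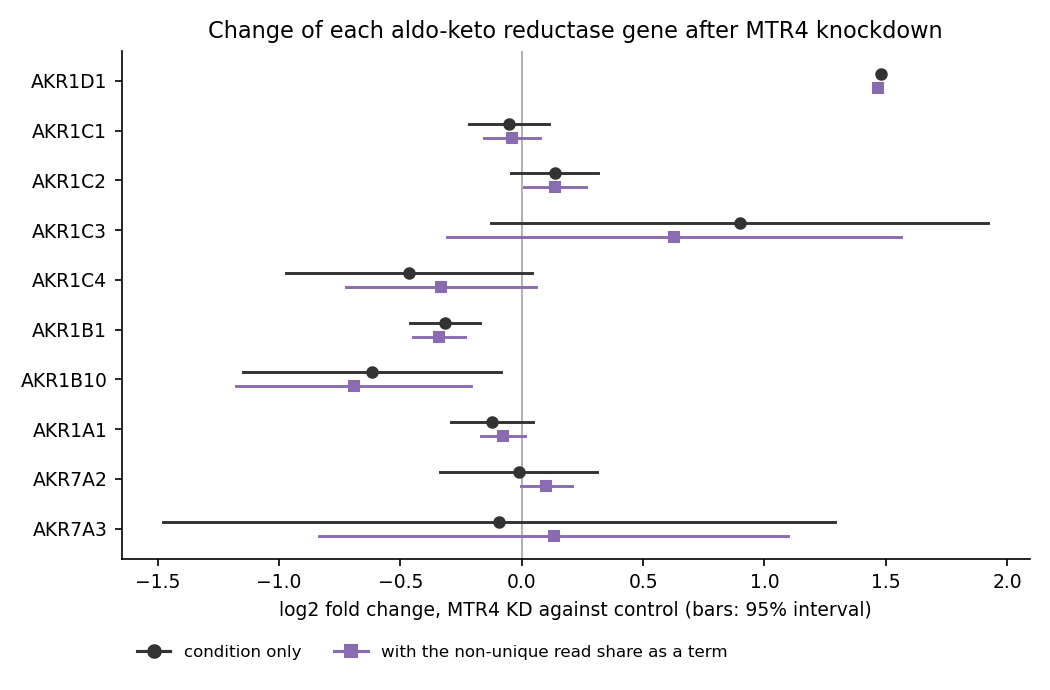
Log2 fold change of each gene in MTR4 KD against control, from the fit with condition only (black circles) and with the read set as a second term (purple squares), with lines for 95% intervals. AKR1D1, at 1.48 and 1.47, has no interval because its rise chose the family. Intervals are per gene and not adjusted for the number of genes tested. Of the other 9 genes AKR1B1 and AKR1B10 have intervals below 0 in both fits, though AKR1B10 was called only with the read set. AKR1C2 has an interval above 0 with the read set only and was called in neither fit.

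Of 35 carbonyl reductases and aldehyde dehydrogenases of other families, 30 were tested and 1 was called higher. It was ALDH5A1, which oxidizes the aldehyde that AKR7A2 reduces. It had 41.2, 41.9 and 39.2 CPM in the control libraries against 54.4, 53.4 and 48.1 CPM in the MTR4 KD libraries, and its log2 fold change was 0.35 (edgeR, adjusted p = 0.0425). The median over the 30 genes was 0.10. With the read set as a term 7 were called higher and 4 lower. Of all tested genes, 1.48% were called higher and 2.12% lower by condition only, and 9.43% and 10.8% with the read set.

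All 25 listed genes of NRF2 and its known targets were tested, and 1 was called higher and 2 lower. Their median log2 fold change was -0.02. OSGIN1, a growth inhibitor induced by oxidative stress, went from 58.0, 36.6 and 49.5 CPM to 102, 103 and 127 CPM, a rise of 1.21 on the log2 scale (adjusted p = 0.0134). TKT, the transketolase of the pentose phosphate pathway, fell by 0.35 (adjusted p = 0.0451). With the read set as a term 5 were called higher and 3 lower. Over all tested genes the shares called higher and lower were 1.48% and 2.12% by condition only, and 9.43% and 10.8% with the read set.

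The superfamily has 7 more genes in the files. AKR1B15, AKR1C8 and AKR1E2 had at most 2 counts in any library, under the floor of 3 counts used here (0.0414 to 0.0497 CPM), and were not tested. The other 4 did not pass the test by edgeR, DESeq2's Wald test or limma-voom, and none had an unadjusted p under 0.05 in edgeR. Their log2 fold changes were 0.44 for the pseudogene AKR7L (adjusted p = 0.464) and, for the potassium channel beta subunits, 0.04 for KCNAB1 (0.944), -0.28 for KCNAB2 (0.708) and -0.03 for KCNAB3 (0.964), with a median of 0.01.

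The pattern of AKR1D1 over the 6 libraries was compared with that of 12035 protein-coding genes with a mean of at least 1 CPM, as the distance between log2 CPM values centred on each gene's mean. The 5 nearest were HRG (distance 0.245), ADH1A (0.255), GC (0.318), ADGRG5 (0.341) and BBOX1 (0.351). HRG and GC encode plasma proteins of the liver, ADH1A an alcohol dehydrogenase, ADGRG5 an adhesion receptor and BBOX1 the last enzyme of carnitine synthesis. Mean CPM went from 6.49 to 18.3 for HRG, from 30.5 to 84.7 for ADH1A, from 10.5 to 25.5 for GC, from 1.79 to 5.10 for ADGRG5 and from 3.8 to 11.9 for BBOX1. This is a description over 6 libraries that share 2 conditions.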

How the data were processed

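RNA-seq libraries of PLC/PRF/5 cells were compared, 3 control and 3 MTR4 KD, grouped by their labels. The authors deposited raw counts of reads per Ensembl gene, without normalization. The submitters' processing notes name HISAT2 2.1.0, HTSeq, DESeq2 and GRCh38, the paper's methods give Ensembl release 84, and the strand setting and read length are not given in the sources used here. Entries not counted on a gene, 37.7% to 49.3% per library, were left out of library sizes.

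Symbols and transcript lengths came from GENCODE v44 on GRCh37 (56959 of 60675 genes matched) and positions and promoters from RefSeq GRCh38.p14. Genes were kept by filterByExpr (minimum of 10 counts), scaled by TMM and tested with edgeR 4.0.16 (R 4.3.3, limma 3.58.1), a quasi-likelihood test with condition as its only term and Benjamini-Hochberg adjustment over 18075 genes. CPM used TMM library sizes. The read set (over 30% non-unique reads or not) was a second term in an alternative. The others were DESeq2's size factors, total counts, no filter, at least 1 CPM in 3 libraries, DESeq2 1.42.0, limma-voom, a replicate block, near copies summed, and each library left out. Tables and plots used Python 3.11.15, pandas 2.3.3 and matplotlib 3.10.9. The procedure was tested on simulated counts that held changes by condition only and no difference between the read sets.

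The family and all gene lists were chosen with earlier results of these data known. Named are MTR4, the family, the other superfamily genes, at most 4 members per direction of each other list with an adjusted p under 0.05, and the 5 protein-coding genes most like AKR1D1; 2 genes under this rule are not reported here. Replicate libraries differed by more than sampling noise (chi-square per degree of freedom 4.54 to 83.1).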

Additional observations from a re-analysis of the deposited data

How the results depend on the processing

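MTR4 stayed lower in every alternative, and AKR1D1 kept a log2 fold change between 1.35 and 1.57. Of the 9 other aldo-keto reductases, the 1 call became 0 with total counts and with any library left out (0 to 0), and 2 with the read set as a term. AKR7A2 changed sign to 0.10 with the read set and to 0.14 and 0.059 within the sets with more and fewer non-unique reads, and lay between -0.16 and 0.065 with 1 library left out. AKR7A3 changed sign to 0.13 with the read set and to 0.63 within the set with more non-unique reads, and lay between -0.87 and 0.33 with 1 library left out. AKR1C1 was 0.028 within that set and -0.11 within the other. The causes were not tested. The related lists had 4 (other superfamily), 13 (bile acid), 22 (steroid), 30 (carbonyl), 8 (polyol) and 25 (NRF2) tested genes in the main fit. They held 10 calls, 20 by DESeq2's Wald test, 38 with the read set and 2 to 12 with 1 library left out. Over all 18075 tested genes 650 (3.60%) were called, 1363 by the Wald test and 3649 (20.2%) with the read set. Without control replicates 1, 2 and 3, 164, 803 and 183 were called of 18691, 18483 and 18665 tested. Without MTR4 KD replicates 1, 2 and 3, 163, 137 and 622 were called of 18703, 18623 and 18658 tested. Values within 1 set rest on 1 library on 1 side and have no test. AKR1C3 and AKR7A3, with at most 51 counts in a library, had the widest intervals.

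Deviations of same-numbered replicates from their group means had correlations of -0.24, 0.32 and 0.35 for numbers 1, 2 and 3. Number 1 spans both read sets, while numbers 2 and 3 each lie within 1 set. Pairs with different numbers within 1 set had 0.36 (control 2 and MTR4 KD 1) and 0.34 (control 1 and MTR4 KD 3). The correlations thus went with the read set, and they cannot show whether the numbers also pair the samples. The fit with the replicate block called 857 genes, left the count among the 9 genes at 1 (AKR1B1, adjusted p = 0.0497) and MTR4 at -0.76.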
